A study of Homo sapiens with 4 samples.

Results

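Fibrinogen, the soluble precursor of the blood clot, is built from the products of 3 genes, FGA, FGB and FGG, and these 3 of the 20286 genes in the deposited tables are described here. They were chosen by name, with their values in this comparison already known, so their levels and the differences between the groups are given as a description, with no test. Transcripts were measured by RNA sequencing in HLE, an established line from a human hepatocellular carcinoma. The 2 Vector libraries came from HLE cells stably carrying an empty vector, and the 2 CYR61 libraries from a line with stable expression of CYR61, a secreted protein of the extracellular matrix now named CCN1. The series description calls the libraries of a group independent cultures of the total cell population, so the spread between libraries is that between cultures of 1 population per group, and p-values measure that spread alone. Which promoter drives CYR61 in the vector is not stated in the labels. All groups share the medium, with fetal bovine serum and antibiotics, and had no further treatment.

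Hepatocytes make and secrete fibrinogen. FGA encodes the alpha chain, FGB the beta chain and FGG the gamma chain, and the chains are joined by disulfide bonds in the endoplasmic reticulum into a symmetric molecule that holds each chain in equal number. Thrombin cuts short peptides from the alpha and beta chains, which starts polymerisation into fibrin, while the gamma chain carries a main binding site for the platelet integrin and sites where factor XIII cross-links fibrin. Transcription of the genes in liver is known to depend on liver-enriched factors, among them the C/EBP family, and it increases in the acute phase response through interleukin-6, STAT3 and glucocorticoids.

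The genes lie side by side on chromosome 4 (hg38 positions from GENCODE release 29, the assembly of the authors' files). FGB (ENSG00000171564) spans 154562956 to 154571086 on the plus strand, FGA (ENSG00000171560) spans 154583126 to 154590766 on the minus strand, and FGG (ENSG00000171557) spans 154604134 to 154612967 on the minus strand. From the start of FGB to the end of FGG the cluster covers 50012 bases, with 12039 bases between FGB and FGA and 13367 bases between FGA and FGG. None of the 3 spans overlapped another gene of that release on either strand. The gene models used for counting are not stated, so overlaps in those were not tested.

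Sequences before the transcription starts are shown because the genes are known targets of the same liver factors. They come from the RefSeq promoter table (GRCh38.p14), which held all 3 genes. Printed for FGA and FGB are the bases of that table that precede every annotated exon, and for FGG, whose window is covered by annotated FGG exons, a stretch of 30 bases. Capitals mark matches to CTGGGA or CTGGGAA (the type II interleukin-6 response element) and TTGCNNAA (a C/EBP consensus), searched on both strands.
FGA, chr4:154590767-154590992, minus strand: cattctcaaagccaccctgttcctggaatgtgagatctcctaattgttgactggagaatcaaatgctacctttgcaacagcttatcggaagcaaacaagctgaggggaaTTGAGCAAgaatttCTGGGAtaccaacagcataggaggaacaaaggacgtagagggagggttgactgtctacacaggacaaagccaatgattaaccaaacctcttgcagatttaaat
FGB, chr4:154562730-154562955, plus strand: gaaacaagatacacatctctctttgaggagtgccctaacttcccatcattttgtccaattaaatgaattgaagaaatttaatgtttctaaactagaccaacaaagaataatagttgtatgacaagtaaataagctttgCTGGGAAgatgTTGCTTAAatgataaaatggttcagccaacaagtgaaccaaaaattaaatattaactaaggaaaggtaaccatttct
FGG, chr4:154612800-154612829, minus strand: tgtgtgcaaaatCTGGGAAcctgacagtat

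The core CTGGGA was present in all 3 windows, beginning 127 bases before the RefSeq start in FGA, 112 bases in FGB and 161 bases in FGG, which has another match on the reverse strand 42 bases before its start. It is a common word: 33.3% of the 34943 promoter windows of 300 bases in the table held it. The longer CTGGGAA, which contains it, was in FGB and FGG and in 10.9% of all windows. FGA and FGB each held a TTGCNNAA match, 141 and 101 bases before the start and on the reverse strand in FGA (10.5% of all windows). The letters of the STAT site TTCNNNGAA were in FGA, 231 bases before the start (7.66% of all windows). Neither CACGTG (7.23%) nor TATAAA (11.6%) was in any of the 3. These are matches of letters and say nothing about which factors were bound in HLE cells.

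The libraries held 16186988 to 21588822 estimated counts. The CYR61 transcript followed the labels. In CPM, counts scaled to a common library size, it stood at 220 ± 2.28 in Vector and rose to 8352 ± 374 in CYR61 cells (mean ± SD, n = 2 each; edgeR adjusted p = 1.33e-08, log2 fold change 5.25 with SE 0.13). Transgene reads and reads of the native gene cannot be told apart. Of 12698 genes tested with edgeR, 232 were called higher (1.83%) and 579 lower (4.56%) in CYR61 cells at an adjusted p below 0.05. The median log2 fold change over all tested genes was -0.006. The balance of the 2 directions depended on the processing: with a per-library trend on GC content removed, 2018 genes were called higher and 1780 lower, and by DESeq2 359 and 555. Defining hepatocyte transcripts were nearly absent in all libraries. ALB, encoding albumin, had 0 counts in each of the 4 libraries, as did TTR, APOH and the liver cancer marker GPC3, and AFP, encoding alpha-fetoprotein, had 1 count in CYR61 2 and 0 in the others. The epithelial keratin gene KRT8 had 48165 to 61624 counts per library and the mesenchymal filament gene VIM 28245 to 37662. Of all tested genes, 23.9% were higher in CYR61 cells without overlap. Of 4 epithelial markers, KRT8, KRT18 and the cadherin gene CDH1 were so, CDH1 at 1.05 and 2.18 CPM by group means. These 3 were not called by edgeR (adjusted p = 0.117, 0.128 and 0.106, each under 0.05 before adjustment), DESeq2 or limma-voom, but were called higher by edgeR once the GC trend was removed, and CDH1 also without CYR61 2 (adjusted p = 0.0403). The other epithelial marker, EPCAM, was not called (log2 fold change 0.004). Of 3 mesenchymal markers 1 was called, the fibronectin gene FN1, which fell from 79.4 to 28.5 CPM (edgeR adjusted p = 0.000191). CDH2 was higher in CYR61 cells without overlap but not called (log2 fold change 0.18, edgeR adjusted p = 0.446). VIM was not called (log2 fold change -0.17). Of 3 cholangiocyte markers 2 were tested and 1 was called, SOX9, which fell from 10.5 to 4.88 CPM (edgeR adjusted p = 0.0124). The part of such shifts in the fibrinogen differences was not tested.

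FGB was the most abundant fibrinogen transcript. Its estimated counts were 110 in Vector 1, 111 in Vector 2, 448 in CYR61 1 and 290 in CYR61 2. Scaled for library size, these were 5.84 and 5.03 CPM in the Vector libraries and 20.8 and 18.2 CPM in the CYR61 libraries. Both CYR61 libraries stood above both Vector libraries, and the lowest CYR61 value was 3.11 times the highest Vector value. The group means were 5.43 ± 0.573 and 19.5 ± 1.89 CPM (SD, n = 2 each), a log2 difference of 1.85 or 3.6-fold. In bulk RNA, more cells that express a gene and more of its RNA per cell cannot be told apart.

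FGA was about as different between the groups from a lower level. The counts were 37 and 39 in Vector 1 and 2, and 166 and 94 in CYR61 1 and 2. In CPM, Vector 1 was at 1.96, Vector 2 at 1.77, CYR61 1 at 7.72 and CYR61 2 at 5.89, so the groups again did not overlap and the closest pair differed by 3-fold. Means were 1.86 ± 0.14 and 6.8 ± 1.3 CPM, a log2 difference of 1.87 or 3.67-fold. The 95% exact Poisson intervals of the counts, which cover counting error only, were 26.1 to 51 in Vector 1 and 27.7 to 53.3 in Vector 2, against 142 to 193 in CYR61 1 and 76 to 115 in CYR61 2.

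FGG was the least abundant by count, and its Vector libraries disagreed. Vector 1 had 8 counts (exact Poisson interval 3.45 to 15.8) and Vector 2 had 29 (19.4 to 41.6), while CYR61 1 had 42 (30.3 to 56.8) and CYR61 2 had 27 (17.8 to 39.3). This gave 0.425 and 1.31 CPM in Vector and 1.95 and 1.69 CPM in CYR61 libraries. The CYR61 values were above both Vector values, but the intervals of Vector 2 and of both CYR61 libraries overlapped one another. The closest pair, CYR61 2 and Vector 2, differed by 1.29-fold. Means were 0.869 ± 0.628 and 1.82 ± 0.185 CPM, a log2 difference of 1.04 or 2.05-fold. This value depends on which Vector library is kept: without Vector 1 the log2 difference was 0.48, and without Vector 2 it was 2.1.

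**Figure D1:**
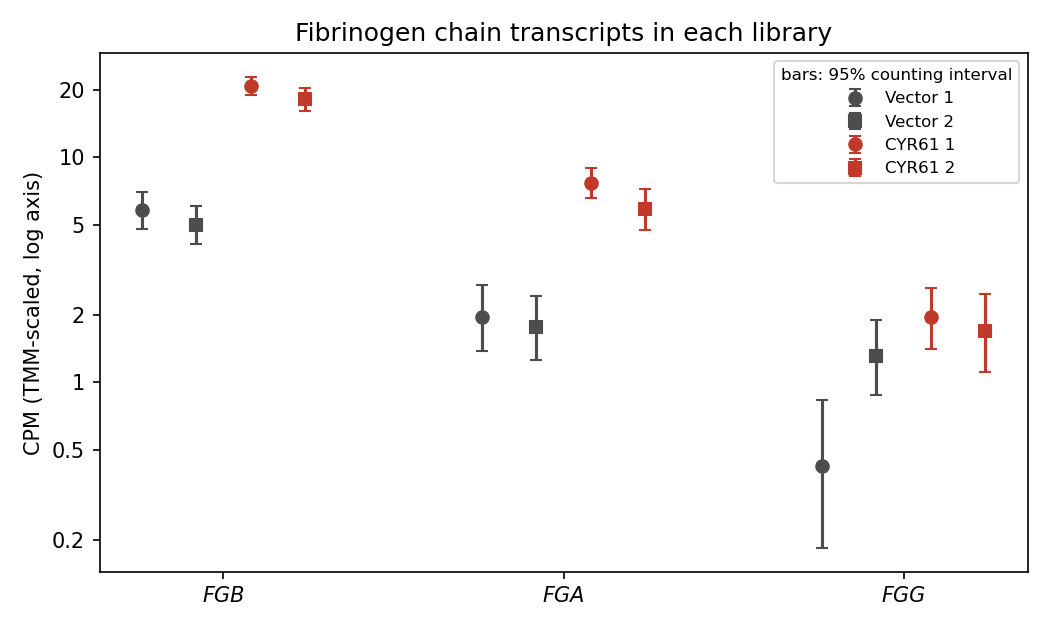
CPM (log axis) of FGB, FGA and FGG in each library; circles are cultures numbered 1, squares cultures numbered 2, and bars are 95% exact Poisson intervals of the counts. FGB and FGA are higher in both CYR61 libraries with no overlap of the bars between groups, whereas for FGG only Vector 1, at 0.425 CPM, stands apart.

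The groups thus did not overlap in CPM for 3 of the 3 fibrinogen genes. Since the genes were chosen with this comparison known, the count is a description; of all 12698 tested genes, 3033 (23.9%) were higher in CYR61 cells without overlap. By log2 difference FGA stood at rank 17, FGB at rank 19 and FGG at rank 68 among the tested genes, and 0.536% of them had a log2 difference of at least that of FGG.

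The gap between the Vector libraries for FGG was unusual for its level. The higher Vector value was 3.09 times the lower for FGG, 1.11 times for FGA and 1.16 times for FGB. Among 584 tested genes with a mean of 1 to 2 CPM the median of this ratio was 1.27, and 10 genes (1.71%), FGG among them, had a ratio of at least that of FGG. Libraries of the same group also differed by GC content: across 10363 genes, not independent of one another, Spearman's rho of GC content with the log2 difference was -0.75 between Vector 2 and Vector 1 and -0.79 between CYR61 1 and CYR61 2. The reference transcripts of FGA, FGB and FGG have GC contents of 43.4%, 41.4% and 41.8%. For 1323 genes of at least 5 CPM and 41% to 44% GC, the median Vector 2 level was 1.12 times that of Vector 1, less than the FGG ratio and opposite in direction to FGA and FGB, which were both lower in Vector 2. The part of this trend in the FGG gap was otherwise not tested. With the trend removed, the log2 differences between groups were 1.84 for FGA, 1.80 for FGB and 1.00 for FGG.

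Per length of transcript, the order of the chains could be compared. Divided by the length of the reference transcript (1.98 kb for FGB, 3.68 kb for FGA and 1.76 kb for FGG), FGB stood at 2.75 ± 0.29 CPM per kb in Vector and 9.87 ± 0.956 in CYR61 cells. FGA stood at 0.507 ± 0.038 and 1.85 ± 0.352 CPM per kb, and FGG at 0.494 ± 0.357 and 1.04 ± 0.105. FGB was therefore first in every library. In Vector cells FGA and FGG did not differ beyond their spread and their order turned between the 2 libraries, while in both CYR61 libraries FGA was above FGG, by 1.89 times and 1.67 times. By this measure FGB stood at the 55.3 and 52.8 percentile of all genes with a known length in the Vector libraries and at the 72.8 and 71 percentile in the CYR61 libraries, where 0 is the lowest level. FGA moved from 42.1 and 41.6 to 51.7 and 49.8, and FGG from 38.4 and 43.8 to 46.9 and 46.1.

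These levels depend on the transcript model. The FGA reference transcript is its longest annotated one. With a shorter protein-coding transcript (2.25 kb), FGA was at 0.83 ± 0.0621 CPM per kb in Vector and 3.03 ± 0.576 in CYR61 cells. Both values were above the FGG mean of the group. In Vector 1 and Vector 2, FGA was then at 0.873 and 0.786 and FGG at 0.241 and 0.746. The order of FGA and FGG thus did not turn between the Vector libraries with this length. With the union of all exons, FGB stood at 7.2, FGA at 1.72 and FGG at 0.506 CPM per kb in CYR61 cells, with FGB still first. The gene counts do not separate the forms.

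The makeup of the fibrinogen transcripts was close in 3 of the 4 libraries. The genes together had 155, 179, 656 and 411 counts in Vector 1, Vector 2, CYR61 1 and CYR61 2. FGB took 71% of these counts in Vector 1 (95% Wilson interval 63.4% to 77.5%), 62% in Vector 2 (54.7% to 68.8%), 68.3% in CYR61 1 and 70.6% in CYR61 2. FGA took 23.9%, 21.8%, 25.3% and 22.9%. FGG took 5.16% in Vector 1 (2.64% to 9.85%), 6.4% in CYR61 1 (4.77% to 8.54%) and 6.57% in CYR61 2 (4.55% to 9.39%), but 16.2% in Vector 2 (11.5% to 22.3%). The library that stands apart in makeup is thus Vector 2, although in CPM it was Vector 1 that was lowest for FGG. The ratio of FGB to FGA counts stayed between 2.7 and 3.09 in the 4 libraries. Summed over the chains, fibrinogen transcripts were at 8.23 and 8.11 CPM in Vector and 30.5 and 25.7 CPM in CYR61 libraries, 3.44-fold higher by group means.

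**Figure D2:**
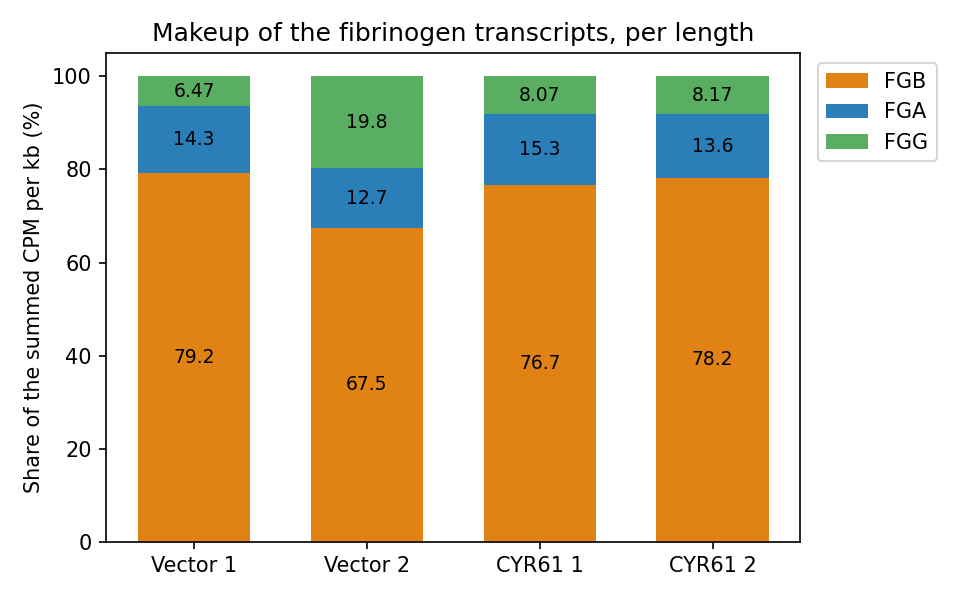
Stacked bars, from 0, give the percent of the summed fibrinogen CPM per kb that each chain takes in each library (reference transcript lengths). FGB takes 67.5% to 79.2%, and FGG takes 19.8% in Vector 2 against 6.47% to 8.17% in the other libraries.

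Genes around fibrinogen were taken from 10 lists of 164 genes, chosen with earlier results of these data known. Of these, 86 were tested; 14 were called lower, 0 were called higher and 72 were not called, with a median log2 fold change of -0.16, where 4.56% of all tested genes were called lower and 1.83% higher. At an unadjusted edgeR p below 0.05, 2 of the 86 were higher and 21 lower. DESeq2 called 0 higher and 13 lower, and limma-voom 0 higher and 11 lower. With the GC trend removed, 3 were called higher, ICAM1 and PROCR among them, and 23 lower. The remaining 78 genes had too few counts to be tested, and 32 genes had 0 counts in all 4 libraries.

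**Figure D3:**
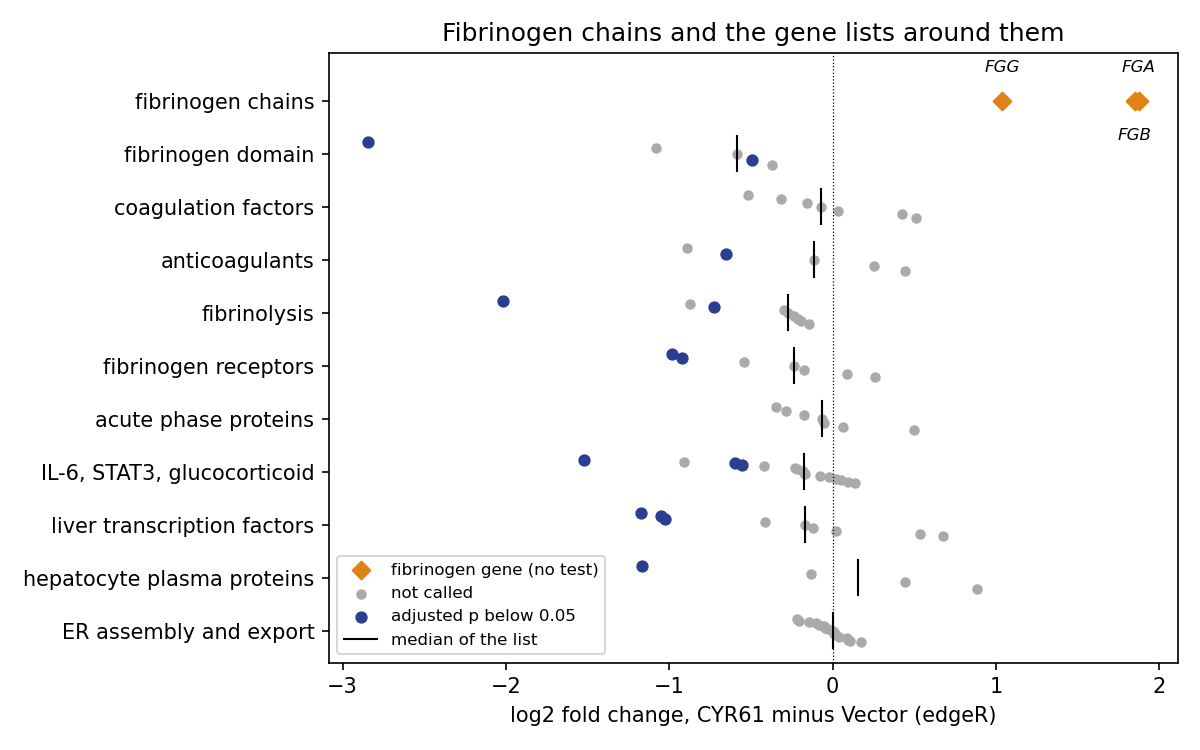
Log2 fold changes (CYR61 minus Vector) of the tested genes of each list, with the fibrinogen chains on the top line; blue points had an edgeR adjusted p below 0.05 and black ticks are list medians. The fibrinogen genes lie at 1.04 to 1.87, while the 14 called genes of the lists all lie below 0.

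Of 21 other genes with a fibrinogen-like domain, 16 had too few counts to be tested. The 5 tested genes all had log2 fold changes below 0 (median -0.59), and 2 were called lower. ANGPTL4, a secreted inhibitor of lipoprotein lipase whose carboxy-terminal part has this domain, fell from 29 ± 4.97 to 3.99 ± 0.6 CPM (n = 2 each; edgeR adjusted p = 0.000104, log2 fold change -2.85 with SE 0.21). TNXB, a matrix tenascin, fell from 147 ± 13.5 to 104 ± 11.9 CPM (edgeR adjusted p = 0.0484, log2 fold change -0.50); its value is uncertain, since it has a near-identical partial copy and overlaps ATF6B and CYP21A2. The TNXB call was lost without Vector 1 (edgeR adjusted p = 0.336), Vector 2 (0.0653) or CYR61 1 (0.263), with the replicate block (0.273), with RLE (0.0669) or upper quartile scaling (0.0548) and by limma-voom (0.0503). FGL1, a liver-secreted fibrinogen-like protein, was too low to be tested and was picked out after its values were seen: it had 1 and 3 counts in Vector and 9 and 11 counts in CYR61 libraries.

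In the list of coagulation genes, which also holds VWF, GGCX and VKORC1, none was called. Of 16 listed, 7 were tested and 7 had 0 counts in all libraries, among them F5, F9, F11 and both factor XIII genes, F13A1 and F13B. F2, the prothrombin gene, was not tested, with a mean of 0.0945 CPM in Vector and 0 counts in both CYR61 libraries. F3, tissue factor, which starts coagulation, had the smallest p: it was at 4.78 ± 0.0866 and 3.34 ± 0.0567 CPM (edgeR adjusted p = 0.21, log2 fold change -0.52). At an unadjusted edgeR p below 0.05, 1 of the 7 was lower and 0 were higher, and DESeq2 and limma-voom called 0 in either direction. Of 11 natural anticoagulants, 5 were tested and 1 was lower, TFPI2, a Kunitz-type protease inhibitor, from 33.9 ± 2.5 to 21.5 ± 2.99 CPM (edgeR adjusted p = 0.0373, log2 fold change -0.66). TFPI2 overlaps GNGT1. That call was lost without Vector 1 (edgeR adjusted p = 0.0531), Vector 2 (0.169) or CYR61 2 (0.0912), with the replicate block (0.165) and with library size alone (0.0595).

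Genes of fibrin breakdown were lower where called. Of 14 listed, 9 were tested, 2 were called lower, and the log2 fold changes of all 9 were below 0, with a median of -0.28. PLAUR, the urokinase receptor, fell from 56.9 ± 6.75 to 34.3 ± 1.14 CPM (edgeR adjusted p = 0.0135, log2 fold change -0.73), a call lost without Vector 1 (0.117) and with the replicate block (0.0678). The activator genes PLAT (log2 fold change -0.28) and PLAU (-0.87) were not called, and PLG, the plasminogen gene, was too low to be tested.

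Among 10 genes of receptors that bind fibrinogen or fibrin, 7 were tested and 2 were lower. ITGA5, the alpha subunit of the fibronectin receptor that also binds fibrin, fell from 352 ± 16.9 to 178 ± 4.86 CPM (edgeR adjusted p = 0.000878, log2 fold change -0.99 with SE 0.11). ITGB2, the beta subunit of leukocyte integrins, fell from 12.6 ± 3.17 to 6.68 ± 1.36 CPM (edgeR adjusted p = 0.0442, log2 fold change -0.92), a call lost without Vector 1 (0.243) or CYR61 1 (0.091), with library size alone (0.0611) and by limma-voom (0.0523). ITGB3, the beta subunit of the platelet fibrinogen receptor, was too low to be tested, and ITGAV, ITGB1 and ICAM1 were not called.

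The liver factors known to act on the fibrinogen promoters were lower or not called. Of 16 listed, 9 were tested, and the 3 called genes were all of the C/EBP family and all lower. CEBPB had 3180 and 3420 counts in Vector 1 and 2 and fell from 162 ± 9.82 to 79.4 ± 8.44 CPM (edgeR adjusted p = 0.0015, log2 fold change -1.03 with SE 0.12). CEBPA fell from 15.3 ± 0.225 to 6.79 ± 0.401 CPM (edgeR adjusted p = 0.0039, log2 fold change -1.17 with SE 0.17), and CEBPG from 68 ± 6.97 to 32.8 ± 4.55 CPM (edgeR adjusted p = 0.00273, log2 fold change -1.05 with SE 0.15). These calls held under each of the 16 alternatives run for them. CEBPD was not called (log2 fold change 0.02). HNF4A, a nuclear receptor gene of hepatocytes, was not called (log2 fold change -0.41), and FOXA2, FOXA3, ONECUT1 and PROX1 had 0 counts in all libraries.

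In the pathway of interleukin-6, STAT3 and glucocorticoids, 16 of 18 genes were tested and 3 were lower (median log2 fold change -0.18). OSMR, a receptor subunit for oncostatin M, fell from 320 ± 12.8 to 217 ± 8.53 CPM (edgeR adjusted p = 0.0155, log2 fold change -0.56). IL6ST, the gp130 subunit shared by this cytokine family, fell from 107 ± 16.2 to 70.6 ± 10.5 CPM (edgeR adjusted p = 0.0439, log2 fold change -0.60), and the cytokine gene IL11 from 2.71 ± 0.822 to 0.927 ± 0.0705 CPM (edgeR adjusted p = 0.036, log2 fold change -1.53). Each of these calls was lost in part: OSMR without Vector 2 (edgeR adjusted p = 0.11) and with the replicate block (0.165), IL6ST without Vector 2 (0.269) or CYR61 2 (0.0996), with the replicate block (0.15) and with library size alone (0.0742), and IL11 without Vector 1 (0.275), by DESeq2 (adjusted p = 0.0972) and by limma-voom (0.0502). OSMR overlaps RICTOR in the annotation, on the opposite strand. STAT3 (log2 fold change -0.02), its feedback target SOCS3 (-0.22), IL6R (-0.17) and the glucocorticoid receptor gene NR3C1 (-0.18) were not called.

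Of 23 other plasma protein genes of the acute phase, 7 were tested and 16 had too few counts. None was called by edgeR, DESeq2 or limma-voom, and 0 had an unadjusted edgeR p below 0.05. CRP had a mean of 0 CPM in Vector and 0.0859 CPM in CYR61 cells, and HP of 0.0226 and 0.0313 CPM. Some low genes had more counts in CYR61 cells and were picked out after their values were seen. SAA1, an acute phase apolipoprotein, had 7.94 counts in CYR61 1, 1 in CYR61 2 and 0 in Vector 1 and Vector 2, and CD14, the endotoxin co-receptor, was at 0.276 and 0.545 CPM by group means. Without overlap, 2 of the 7 tested genes were higher in CYR61 cells and 3 lower, beside 23.9% and 27.7% of all tested genes. The 2 higher ones were not called. C4BPA, a chain of the complement C4b-binding protein, was at 0.484 and 0.685 CPM by group means (edgeR adjusted p = 0.596, log2 fold change 0.50). C4BPB was at 160 ± 2.53 and 167 ± 3.47 CPM (edgeR adjusted p = 0.79, log2 fold change 0.06). The smallest p was that of CFB, complement factor B, at 43.3 ± 2.12 and 38.4 ± 2.4 CPM (edgeR adjusted p = 0.474, log2 fold change -0.17). Of 18 hepatocyte plasma protein genes, 4 were tested and 9 had 0 counts in all libraries. RBP4, the plasma retinol carrier, fell from 9.11 ± 1.68 to 4.03 ± 0.291 CPM (edgeR adjusted p = 0.0125, log2 fold change -1.17; adjusted p = 0.0506 without Vector 1), and APOE, TF and VTN were not called. RBP4 overlaps FFAR4, and CFB overlaps C2. All 17 genes of chain assembly and export from the endoplasmic reticulum were tested and 0 were called by edgeR, DESeq2 or limma-voom, none of them with an unadjusted edgeR p below 0.05. HSPA5 (log2 fold change -0.15), HSP90B1 (0.10), the chaperone CANX (0.01) and the disulfide isomerase PDIA3 (0.003) were among them, and UGGT1 had the smallest p (-0.21, edgeR adjusted p = 0.349). UGGT1 was called lower once the GC trend was removed (-0.23, edgeR adjusted p = 0.018).

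Markers of hepatocytes and of other cell types were looked at beside these results. Of 6 megakaryocyte and platelet genes, GP9, PF4 and PPBP had 0 counts in all libraries, and the summed level of the 6 was 8.17 and 9.6 CPM in Vector and 8.37 and 7.77 CPM in CYR61 libraries. The 6 hepatocyte markers summed to 11.6 and 12.7 CPM in Vector and 11 and 11.3 CPM in CYR61 libraries, nearly all from TF, with ALB, TTR and APOH at 0. Of 7 fibroblast and stellate markers, 4 were tested and 1, DCN, rose, and the summed level was 47.8, 39.2, 39.1 and 38.9 CPM in Vector 1, Vector 2, CYR61 1 and CYR61 2. The leukocyte list, nearly all CD68, summed to 67.8 and 63.2 CPM in Vector and 48.4 and 53.5 CPM in CYR61 libraries, with CD3E at 0 in every library, and the endothelial list to 1.02 to 1.49 CPM per library. DCN, a fibroblast proteoglycan gene, had 12 and 12 counts in Vector and 79 and 36 in CYR61 libraries. LUM had 0 and 0 against 13 and 2, and the platelet tubulin gene TUBB1 3.01 and 4.03 against 26.3 and 9.08. TUBB1 was not called by edgeR (adjusted p = 0.057), DESeq2 (0.201) or limma-voom (0.0597). It was called higher by edgeR with the GC trend removed (adjusted p = 0.0139) and with no filter (0.0241). The part of such cells in the fibrinogen differences was not tested.

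Of the genes next to the cluster on each side, only PLRG1 had counts, and its level was not higher in CYR61 cells. PLRG1, a splicing factor gene that ends 12.5 kb from FGB, was at 46.3 ± 3.67 CPM in Vector and 37.9 ± 0.0371 CPM in CYR61 cells (edgeR adjusted p = 0.231, log2 fold change -0.29), and with the GC trend removed it was called lower (-0.33, edgeR adjusted p = 0.0296). LRAT, an enzyme of retinol storage whose gene begins 14 kb beyond FGG, had 0 counts in all libraries. Of the other 8 genes of the files within 1 Mb, TMEM131L was the only one tested. It was at 11.1 ± 1.8 and 15.7 ± 1.37 CPM (edgeR adjusted p = 0.132, log2 fold change 0.50).

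The 5 genes whose pattern over the 4 libraries was most like that of the fibrinogen genes were found among tested genes with a mean of at least 1 CPM. Left out by name were genes without a symbol, clone-based, LINC and antisense names, and symbols ending in P and a number. The last rule also removes some protein-coding genes, so nearer genes may have been left out. Likeness was the Euclidean distance between log2 CPM values centred on each gene's mean and the mean of the 3 fibrinogen profiles. KCND3, a potassium channel gene, was nearest at a distance of 0.38, followed by the ephrin receptor gene EPHA7 (0.44), SAGSIN1 (0.45), HLA-DMA (0.48) and VAV3 (0.51). For comparison, the members themselves lay 0.42 (FGA), 0.47 (FGB) and 0.88 (FGG) from their own mean profile. KCND3 was at 0.564 ± 0.0285 and 1.67 ± 0.0653 CPM (edgeR adjusted p = 0.0457, log2 fold change 1.57), a call lost without Vector 1 (0.175), Vector 2 (0.202) or CYR61 1 (0.154), by DESeq2 (0.187), with the replicate block (0.0754) and with library size alone (0.0562). VAV3, a guanine nucleotide exchange factor gene, rose from 1.59 ± 0.754 to 4.63 ± 0.363 CPM (edgeR adjusted p = 0.0246, log2 fold change 1.51; adjusted p = 0.091 without Vector 1). SAGSIN1 was at 7.09 ± 1.31 and 16.4 ± 0.59 CPM (edgeR adjusted p = 0.00514), but this call is uncertain. FAM220A, looked at after its values were seen, stood at 11.5 and 9.78 CPM in Vector and at 0.0465 and 0.313 CPM in CYR61 libraries, and the sum of both genes was 17.6 and 17.8 CPM in Vector and 16 and 17.1 CPM in CYR61 libraries. The summed level thus did not show the difference that SAGSIN1 showed alone. SAGSIN1 has no position in the annotation used here, so whether the gene models overlap was not tested. EPHA7 (edgeR adjusted p = 0.0509, log2 fold change 1.2; 0.0211 without CYR61 2) and HLA-DMA (1.26, edgeR adjusted p = 0.0791) were not called, though both were with the GC trend removed. HLA-DMA overlaps the abundant gene BRD2. Distance over 4 libraries is a description, since many genes with a like difference between groups share such a profile.

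**Figure D4:**
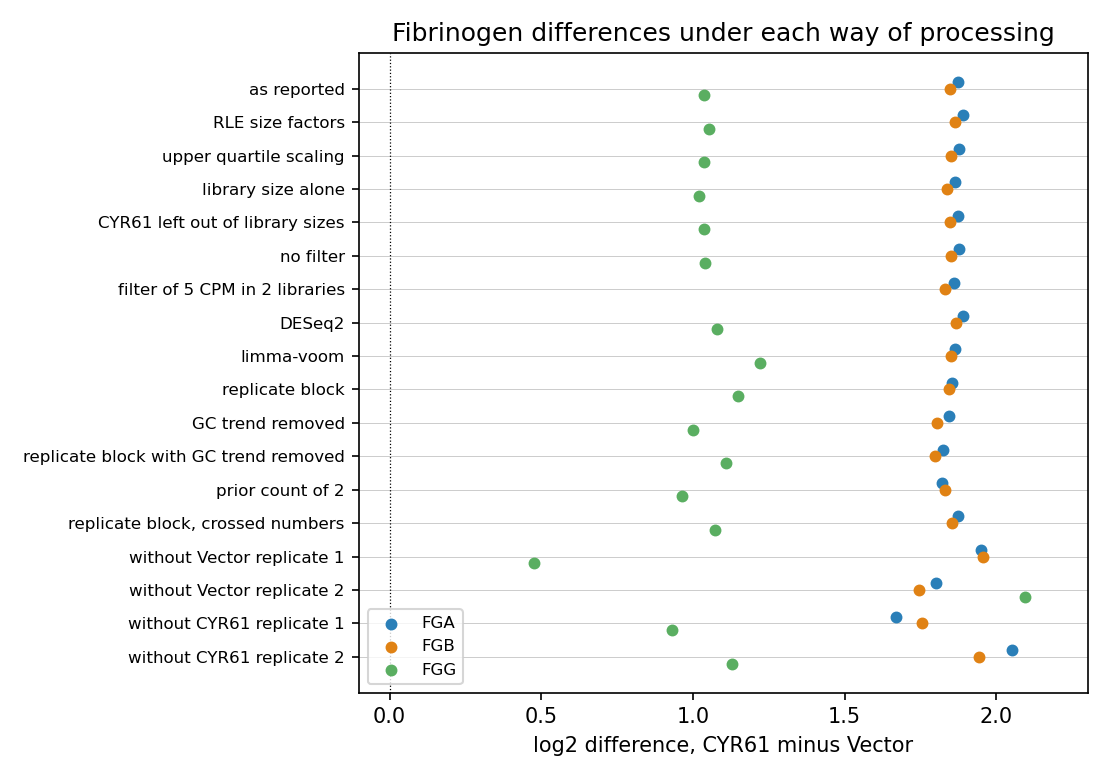
Log2 differences (CYR61 minus Vector) of FGA, FGB and FGG as reported and under each alternative processing. FGA stays between 1.67 and 2.05 and FGB between 1.75 and 1.96, whereas FGG runs from 0.48 without Vector 1 to 2.1 without Vector 2; FGG has no point under the 5 CPM filter, which removes it.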

How the data were processed

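Each library has 1 deposited table, with estimated counts that the authors left unnormalised, for 20286 Ensembl genes; 11.2% to 12% of the values were not whole. Per the submitters' processing notes, the build was hg38 and the tools included Cuffdiff 1.3.0, Cufflinks 2.2.1 and TopHat2 2.1.1. For the counting program, the annotation and the use of strand, nothing is stated in the labels. Counts were rounded, filtered with edgeR's filterByExpr and TMM-scaled, and CYR61 was compared with Vector on group alone by the quasi-likelihood test of edgeR 4.0.16 under R 4.3.3, with Benjamini-Hochberg adjustment over 12698 genes. CPM are TMM-scaled.

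Members and lists were chosen with earlier results of these data known. The named genes were CYR61, ALB and AFP, up to 4 called genes of smallest adjusted p per list (or the 1 of smallest p), the nearest gene on each side of the cluster and the 5 most alike; others were chosen after their values were seen. Some genes of the lists enter the counts but are not reported here by name. Symbols matched 20228 genes and GENCODE 29 positions 20212. Alternatives included DESeq2 1.42.0, limma-voom (limma 3.58.1), other scalings and filters, the replicate block, GC correction and leaving out each library. In simulated counts over 12582 genes, edgeR recovered 56% of 1.5-fold, 88% of 2-fold and 96% of 4-fold changes, with 5 false calls. The simulated counts had no GC trend and no correlation between genes, so these rates may not hold for the real libraries. Counting intervals are exact Poisson or Wilson and cover counting error only.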

Additional observations from a re-analysis of the deposited data

How the results depend on the processing

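FGA and FGB kept a higher level in CYR61 cells and moved by less than the spread between replicates under all 17 alternatives, and FGG did so under 15 of 16; it could not be fitted under the 5 CPM filter. With 1 library left out, the log2 difference ran from 1.67 to 2.05 for FGA and from 1.75 to 1.96 for FGB. For FGG it ran from 0.48, without Vector 1, to 2.1, without Vector 2. The FGG value thus depends on which Vector library is kept (8 counts in Vector 1, 29 in Vector 2), and the cause was not tested. In these fits the lone library of a group is assumed to vary like the others. Leaving out 1 library gave 104 to 538 higher and 377 to 793 lower genes, and 8 to 14 lower genes of the lists with 0 higher; the lowest numbers came without Vector 1. Over all genes, no filter gave 648 higher and 1029 lower, DESeq2 359 higher, the GC correction 2018 and 1780, the replicate block 53 and 338, and the block with the GC correction 1640 and 1482. In the lists, higher genes numbered 1 without a filter and 3 with the GC correction, alone or with the block; lower genes numbered 23 with the GC correction and 9 with the replicate block. Deviations of same-numbered libraries had a correlation of -0.71 over 10377 genes. With 2 libraries per group, the value for opposite numbers is then 0.71 by construction, so only the sign is learned. The numbers are thus not shown to pair the samples, and whether they do was not settled. With the replicate block FGA was at 1.85, FGB at 1.84 and FGG at 1.15. A block with crossed numbers, added after the data were seen, gave 2748 higher and 2876 lower genes, 5 and 33 in the lists. Library size alone, RLE and upper quartile scaling moved the median of all genes by under 0.1. FGG had only 8 to 42 counts per library, and the part of counting depth in its gap between the Vector libraries was not tested.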
